A study of Homo sapiens with 21 samples.

Results

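Tight junctions were followed through 10 genes: the claudins CLDN1, CLDN3, CLDN4, CLDN7, CLDN8 and CLDN12, the transmembrane proteins OCLN and F11R, and the scaffold proteins TJP1 and CGN. They are 10 of the 60668 Ensembl gene identifiers in each of 2 count tables, found by matching symbols after the identifier's version was dropped. All 10 were present in both tables and had enough counts to be fitted. The genes were picked with their differences from the controls in these libraries in view. Their levels and differences are therefore given as a description with standard errors, and no p-value is attached to them.

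The 21 libraries came from HCC1806, an established human breast cancer line of the triple negative class, which by definition lacks hormone receptors and amplified HER2. They fell into 7 groups of 3 libraries. The first table held 3XCTL (genotype control), 3XSR (genotype 3xSR, which the series title ties to joint overexpression of SRSF2, SRSF3 and SRSF7) and MYC-OE (overexpression of MYC). The second held 1xCtrl (a single plasmid control) and the lines 1xSRSF2, 1xSRSF3 and 1xSRSF7, each labelled as overexpressing that 1 factor. SRSF2, SRSF3 and SRSF7 are serine/arginine-rich splicing factors, and MYC is a transcription factor that drives growth genes. All cells were grown flat on plastic in DMEM with serum and antibiotics and were scraped off near confluence. Neither the promoters of the transgenes, nor what the control plasmids carried, nor whether a line was 1 clone is given in the sources used here. Nothing says that the 3 libraries of a group came from separate cultures, so the errors measure only the spread between these libraries, which may be technical.

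Tight junctions seal the space between neighbouring epithelial cells at the apical end of their contacts. Claudins form the strands of the seal and set which ions pass, occludin (OCLN) joins the strands, and the immunoglobulin-like protein F11R (JAM-A) helps place them. Inside the cell TJP1 (ZO-1) ties these proteins to actin, and cingulin (CGN) binds TJP1 and actomyosin. Mammary epithelium uses these junctions to hold milk in the ducts, and low levels of several claudins define the claudin-low class of breast tumours.

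Depth ran from 143269192 to 303323552 counts per library, so 3 counts, the least taken as detected, were worth 0.00947 to 0.0210 CPM (counts divided by library size and multiplied by 1e6, with library sizes scaled within each table by the trimmed mean of M values, TMM). The labelled overexpression was checked first. SRSF3 was higher than its control in 1xSRSF3 (log2 fold change 0.49, SE 0.0702, adjusted p = 0.000193), SRSF7 in 1xSRSF7 (0.26, SE 0.0550, adjusted p = 0.00616) and MYC in MYC-OE (0.90, SE 0.0472, adjusted p = 5.7e-08). SRSF2 was not: its log2 fold change was -0.16 (SE 0.0640, adjusted p = 0.0980) in the libraries labelled 1xSRSF2 and -0.06 (SE 0.0516, adjusted p = 0.389) in those labelled 3XSR, where SRSF3 (0.31) and SRSF7 (0.44) were higher. MYC was also higher in 3XSR (0.75), 1xSRSF3 (0.26) and 1xSRSF7 (0.27). The MYC differences in 1xSRSF3 and 1xSRSF7 did not pass under some of the alternative fits described below. Under 8 of 16 such fits SRSF2 passed as lower in 1xSRSF2, and under 1 of 16 in 3XSR. Of the 3017 exon bases of SRSF2, 1106 lie opposite MFSD11. In 1xSRSF2, SRSF3 (0.30, adjusted p = 0.00794) and SRSF7 (0.24, adjusted p = 0.00681) were higher than the control. SRSF2 was lower than the control in MYC-OE (-0.48, adjusted p = 2.32e-05) and in 1xSRSF7 (-0.38, adjusted p = 0.00180). The lines labelled 1xSRSF2 and 3XSR are therefore named below by their labels only. All 11 epithelial and basal markers were present in all 21 libraries (KRT5, 1600 to 2651 CPM), PGR was at 0 counts in 12 libraries, and ESR1 stood at 6.49 to 11.5 CPM and ERBB2 at 99.6 to 184 CPM. PGR, at most 1.455 CPM, was far below its control in every line. Its log2 fold change was -8.27 in 3XSR and MYC-OE, -11.1 in 1xSRSF2, -6.71 in 1xSRSF3 and -8.67 in 1xSRSF7. With PGR at 0 counts in 12 libraries, the sizes of these values and their order between lines are not reliable. The 8 non-epithelial markers summed to 14.2 to 23.9 CPM in 3XCTL, 26.0 to 28.0 in 3XSR, 42.5 to 46.9 in MYC-OE, 16.3 to 33.1 in 1xCtrl, 30.3 to 32.6 in 1xSRSF2, 38.7 to 42.1 in 1xSRSF3 and 32.0 to 34.4 in 1xSRSF7. Most of that sum was CD68 (5.92 to 36.1 CPM) with COL1A1 (5.46 to 15.7 CPM). CD68 shares 1789 of 2189 exon bases with AC016876.2 on its strand, and reads there cannot be assigned with certainty. PTPRC stayed at or under 0.539 CPM, COL1A2 at or under 0.315 CPM and PECAM1 was at 0 in 2 libraries. The part of these cells or genes in the results was not tested. In such bulk RNA, fewer cells of a kind and less RNA per cell cannot be told apart.

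Libraries also differed in the balance of GC-rich and GC-poor genes, and the members differ in GC content. GC tilt is used here for the log2 deviation of genes with the highest transcript GC content (61.1% and above) minus that of genes with the lowest (up to 38.6% in the first table and 38.5% in the second). Replicate 2 of 1xCtrl stood apart, at 0.77 against -0.24 and -0.52 in the other 1xCtrl libraries, and replicate 2 of 3XCTL was at -0.40 against 0.31 and 0.27. The tilt was -0.44 to -0.23 in 3XSR, 0.22 to 0.43 in MYC-OE, -0.02 to 0.12 in 1xSRSF2, -0.39 to -0.19 in 1xSRSF3 and -0.08 to 0.45 in 1xSRSF7. CLDN3 transcripts have 69.2% GC, CLDN7 59.6%, CLDN4 57.5% and CGN 56.1%, while CLDN8 (37.2%), CLDN12 (38.1%), OCLN (39.9%) and CLDN1 (41.5%) lie toward the other end. TJP1 (44.8%) and F11R (47.6%) are in between. The part of the GC tilt in the results was not tested, but values with each library's GC trend removed are given for many of the members and lines, not for all.

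The promoters of 4 members are shown, of which CLDN1 and CGN were lower than their control in several lines, OCLN was higher, and CLDN7 differed little. The windows run from 250 bases before to 50 bases after the RefSeq start (GRCh38.p14), and 8 of the 10 members had 13 windows in all. CLDN8 and F11R had no entry. Capitals mark 3 motifs, searched on both strands: CAGGTG (read as CACCTG on the other strand), the E-box bound by SNAI and ZEB repressors, CACGTG, the E-box bound by MYC with MAX, and AACCNGTT, bound by grainyhead-like factors. No marked motifs overlap. The CLDN1 window is chr3:190322397-190322696 (minus strand), CLDN7 chr17:7262429-7262728 (minus strand), OCLN chr5:69492297-69492596 (plus strand) and CGN chr1:151511137-151511436 (plus strand). Each is printed 5' to 3' along its gene.
CLDN1: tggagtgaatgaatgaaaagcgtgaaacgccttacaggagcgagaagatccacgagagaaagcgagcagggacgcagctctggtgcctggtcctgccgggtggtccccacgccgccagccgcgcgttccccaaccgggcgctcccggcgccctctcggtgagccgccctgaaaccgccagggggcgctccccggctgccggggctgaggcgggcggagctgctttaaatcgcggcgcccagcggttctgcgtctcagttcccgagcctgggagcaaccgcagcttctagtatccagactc
CLDN7: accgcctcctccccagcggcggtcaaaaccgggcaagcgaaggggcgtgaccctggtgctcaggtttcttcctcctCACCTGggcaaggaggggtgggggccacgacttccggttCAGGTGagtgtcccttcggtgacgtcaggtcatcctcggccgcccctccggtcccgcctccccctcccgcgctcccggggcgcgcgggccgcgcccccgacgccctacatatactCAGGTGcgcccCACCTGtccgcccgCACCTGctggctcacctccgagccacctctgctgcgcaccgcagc
OCLN: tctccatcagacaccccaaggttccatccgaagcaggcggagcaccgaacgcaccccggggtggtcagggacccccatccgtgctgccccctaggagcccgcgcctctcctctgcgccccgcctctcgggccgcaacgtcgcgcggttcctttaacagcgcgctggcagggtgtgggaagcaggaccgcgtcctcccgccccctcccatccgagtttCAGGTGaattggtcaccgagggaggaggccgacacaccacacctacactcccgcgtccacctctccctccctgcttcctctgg
CGN: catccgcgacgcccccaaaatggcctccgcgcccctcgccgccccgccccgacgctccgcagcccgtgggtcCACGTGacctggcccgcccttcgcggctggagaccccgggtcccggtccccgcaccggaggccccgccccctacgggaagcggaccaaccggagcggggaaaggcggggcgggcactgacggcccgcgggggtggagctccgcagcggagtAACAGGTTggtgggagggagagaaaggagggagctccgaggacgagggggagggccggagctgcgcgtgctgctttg
The CLDN1 window held none of the 3 motifs. The CLDN7 window held 5 copies of CAGGTG, a number reached or passed by 0.094% of the 35116 RefSeq promoters, while 20.6% held at least 1. The other CLDN7 window (chr17:7263164-7263463, minus strand) held 0 copies. OCLN held 1 copy at base -33, and a second OCLN window that starts further down held 2. CGN alone among the 13 windows held CACGTG (1 copy, at base -178), which 7.26% of all promoters hold, and AACCNGTT (1 copy, at base -27), which 1.73% hold. These are matches of letters and show no binding.

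On the scale of CPM per kb of merged exons, which allows genes to be compared, the transcripts of these junction genes spanned a wide range. In 3XCTL the order of mean levels was CLDN7 (104 ± 10.8), CLDN1 (96.8 ± 5.06), F11R (75.3 ± 4.22), CLDN4 (22.9 ± 3.20), CLDN8 (17.7 ± 0.115), CLDN12 (11.7 ± 0.904), TJP1 (11.4 ± 0.697), CGN (6.16 ± 0.370), OCLN (1.76 ± 0.227) and CLDN3 (0.375 ± 0.124; SD, n = 3 for each). The libraries of CLDN7 and CLDN1 overlapped, as did those of CLDN12 and TJP1, so these neighbours are not ordered beyond their spread. CLDN8 moved most in this order, from the fifth place in 3XCTL (17.7) to the ninth in 1xSRSF3 (2.24 ± 0.155, SD, n = 3), below OCLN (3.08 ± 0.203) there. CLDN3 was last in all 7 groups. Merged exon lengths come from GENCODE release 29 and count every annotated isoform, so levels of genes with many isoforms, such as CLDN12 (17 merged exons, 6741 bases), can be understated.

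**Figure D1:**
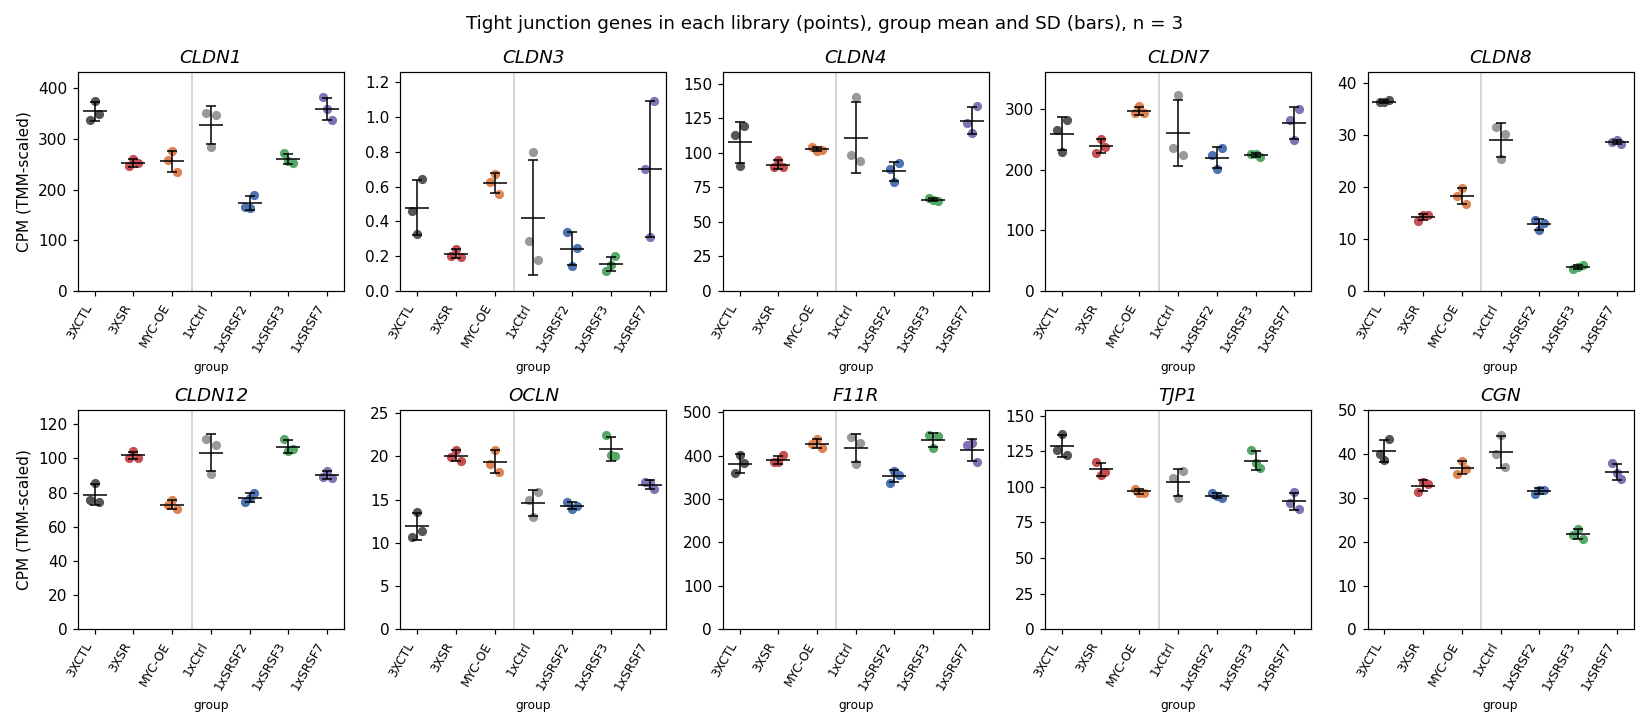
Levels of the 10 genes in CPM (linear axes from 0) by group. Points are libraries, long bars the group means, and whiskers the SD (n = 3); the grey line parts the 2 tables. CLDN8 lies between 4.33 and 4.97 CPM in 1xSRSF3 and between 25.4 and 31.7 in 1xCtrl.

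CLDN8, a sealing claudin on chromosome 21 (GRCh38, 30214006 to 30216073, minus strand, a single exon of 2068 bases), showed the widest differences. In the first table CLDN8 measured 36.4, 36.4 and 36.8 CPM in 3XCTL, 13.5, 14.6 and 14.7 in 3XSR, and 18.2, 19.8 and 16.7 in MYC-OE. In the second table it measured 31.7, 25.4 and 30.3 CPM in 1xCtrl, 13.7, 11.8 and 13.1 in 1xSRSF2, 4.33, 4.57 and 4.97 in 1xSRSF3, and 28.7, 29.1 and 28.3 in 1xSRSF7. All libraries of 3XSR, MYC-OE, 1xSRSF2 and 1xSRSF3 were below those of their control, and only the 1xSRSF7 libraries overlapped it. CLDN8 was 2.56-fold lower in 3XSR (log2 fold change -1.36, SE 0.0685), 2.001-fold lower in MYC-OE (-1.001, SE 0.0677), 2.27-fold lower in 1xSRSF2 (-1.18, SE 0.0905) and 6.30-fold lower in 1xSRSF3 (-2.66, SE 0.0954). In 1xSRSF7 the log2 fold change was -0.02 (SE 0.0890, 95% interval -0.20 to 0.15). With the GC trend removed CLDN8 stood at -1.50 in 3XSR, -0.91 in MYC-OE, -1.08 in 1xSRSF2 and -2.75 in 1xSRSF3. Leaving out any 1 library kept the value in 1xSRSF3 between -2.76 and -2.65.

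The lines also differed among themselves in CLDN8. The level in 1xSRSF3 was below that in 1xSRSF2 by a log2 difference of -1.47 (SE 0.0921) and below that in 1xSRSF7 by -2.63 (SE 0.0953). CLDN8 in MYC-OE was above 3XSR by 0.35 (SE 0.0677, 95% interval 0.22 to 0.49), or by 0.29 to 0.59 under the alternative fits. MYC-OE (0.22 to 0.43) and 3XSR (-0.44 to -0.23) did not overlap in GC tilt. No library of one line overlapped the other in these 3 comparisons. They use the same libraries as the comparisons with the controls and are no independent check of them.

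CLDN1, a barrier claudin on chromosome 3 and the most abundant member beside CLDN7 and F11R, was lower in 4 lines by smaller steps. CLDN1 measured 339, 375 and 350 CPM in 3XCTL, 246, 261 and 253 in 3XSR, and 258, 276 and 235 in MYC-OE. It measured 351, 284 and 348 CPM in 1xCtrl, 166, 164 and 189 in 1xSRSF2, 272, 257 and 252 in 1xSRSF3, and 382, 359 and 338 in 1xSRSF7. The 1xSRSF2 libraries were the lowest of all, and the 1xSRSF7 libraries overlapped the control. The log2 fold change of CLDN1 was -0.49 (SE 0.0638) in 3XSR, -0.47 (SE 0.0638) in MYC-OE, -0.92 (SE 0.0871) in 1xSRSF2, -0.33 (SE 0.0865) in 1xSRSF3 and 0.13 (SE 0.0864) in 1xSRSF7. These were -0.57, -0.43, -0.90, -0.41 and 0.17 in the same order with the GC trend removed. CLDN1 and CLDN8 thus reached their lowest levels in different lines: CLDN1 was higher in 1xSRSF3 than in 1xSRSF2 by 0.59 (SE 0.0867), where CLDN8 was lower. CLDN1 was also higher in 1xSRSF7 than in 1xSRSF2, by 1.06 (SE 0.0873). The MYC-OE and 3XSR libraries overlapped in CLDN1, with a difference of 0.02 (95% interval -0.11 to 0.14). Under the alternative fits this difference ran from -0.04 to 0.14.

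**Figure D2:**
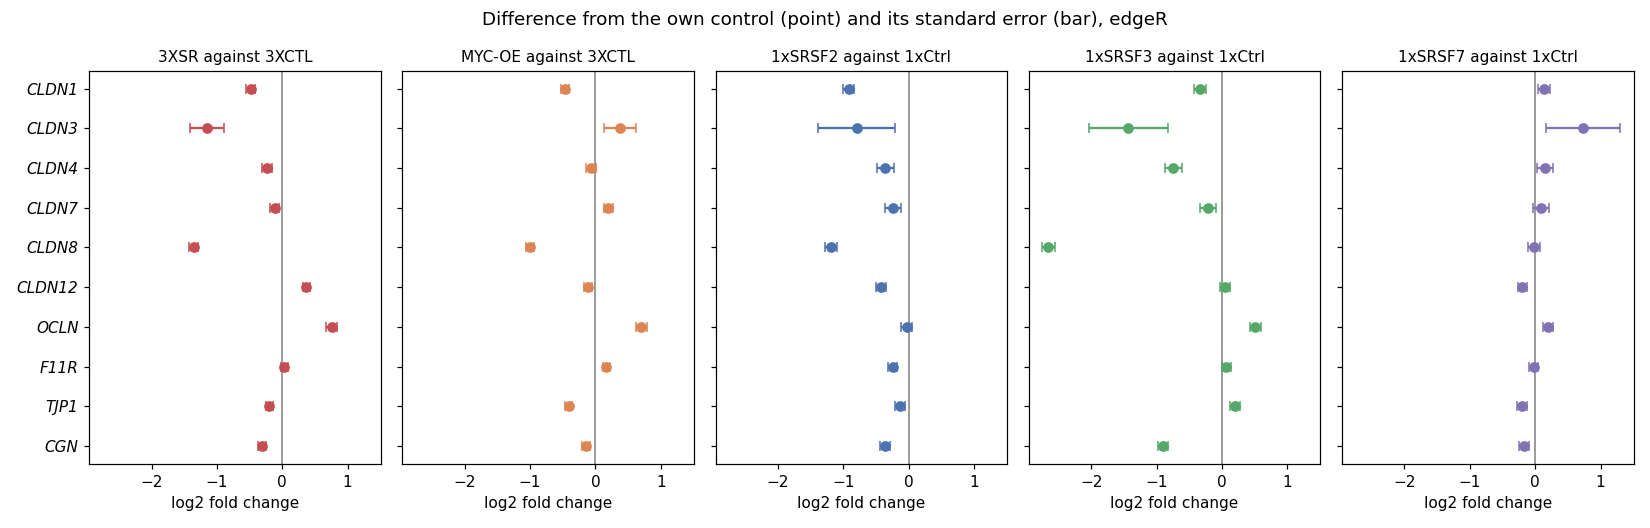
Log2 fold changes of the 10 genes (rows) in the 5 lines (panels) against their own control, with edgeR standard errors as bars. CLDN8 lies at -1.36, -1.001, -1.18, -2.66 and -0.02 from left to right, OCLN is above 0 in 3XSR, MYC-OE and 1xSRSF3, and the CLDN3 bars are the widest.

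CLDN4, CLDN7 and CLDN3 are the GC-rich claudins, and each was highest in replicate 2 among the 1xCtrl libraries. CLDN4, which limits sodium passage, measured 113, 90.7 and 119 CPM in 3XCTL, 89.5, 95.1 and 90.1 in 3XSR, and 104, 102 and 102 in MYC-OE, with overlap between both lines and the control. It measured 98.6, 141 and 94.4 CPM in 1xCtrl, 88.4, 79.1 and 92.7 in 1xSRSF2, 67.1, 66.1 and 65.5 in 1xSRSF3, and 122, 115 and 134 in 1xSRSF7. The high 1xCtrl library is replicate 2, the one with a tilt of 0.77, and the low 3XCTL library is replicate 2, with -0.40. All 1xSRSF3 libraries lay below all others of their table, with a log2 fold change of -0.75 (SE 0.130). That value was -0.62 (SE 0.0660) with the GC trend removed and -0.56 (SE 0.0772) without 1xCtrl replicate 2. In 1xSRSF2 the log2 fold change of CLDN4 was -0.36 (SE 0.129), -0.33 with the GC trend removed and -0.16 without 1xCtrl replicate 2. In 1xSRSF7 it was 0.15 (SE 0.129), 0.14 and 0.37 in the same order. Without replicate 2 the 1xCtrl libraries left were at a tilt of -0.24 and -0.52. The difference between 1xSRSF3 and 1xSRSF7, which leaves the control out, was -0.90 (SE 0.130). Removing the GC trend took CLDN4 in 3XSR from -0.23 to -0.07, while leaving out 3XCTL replicate 2 took it to -0.34.

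CLDN7, a basolateral claudin on chromosome 17 and the highest member per kb, differed little. CLDN7 measured 266, 230 and 282 CPM in 3XCTL, 228, 250 and 238 in 3XSR, and 293, 305 and 293 in MYC-OE. Its levels were 235, 322 and 224 CPM in 1xCtrl, 224, 201 and 235 in 1xSRSF2, 226, 225 and 221 in 1xSRSF3, and 282, 249 and 300.0 in 1xSRSF7. Of the 5 lines, MYC-OE alone lay wholly above its control (0.20, SE 0.0699; 0.15 with the GC trend removed and 0.12 without 3XCTL replicate 2). In 3XSR the log2 fold change of CLDN7 turned from -0.12 (SE 0.0699) to 0.08 when the GC trend was removed. It was -0.20 without 3XCTL replicate 2. In the second table all 3 lines overlapped 1xCtrl, with values of -0.24 (SE 0.121) in 1xSRSF2, -0.22 (SE 0.121) in 1xSRSF3 and 0.09 (SE 0.121) in 1xSRSF7. These were -0.23, -0.08 and -0.003 with the GC trend removed, and -0.07, -0.05 and 0.28 without 1xCtrl replicate 2. CLDN7 shares 269 of its 2492 exon bases with AC003688.1 on the same strand, and reads there cannot be assigned with certainty.

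CLDN3, a sealing claudin on chromosome 7, was close to the bottom of the range, at 23 to 347 counts per library. CLDN3 measured 0.460, 0.329 and 0.644 CPM in 3XCTL, 0.203, 0.244 and 0.196 in 3XSR, and 0.629, 0.671 and 0.559 in MYC-OE. It measured 0.287, 0.798 and 0.179 CPM in 1xCtrl, 0.337, 0.147 and 0.248 in 1xSRSF2, 0.117, 0.151 and 0.200 in 1xSRSF3, and 0.704, 0.309 and 1.095 in 1xSRSF7, and all 3 lines overlapped this control. The log2 fold change in 3XSR was -1.15 (SE 0.263) and -0.84 (SE 0.235) with the GC trend removed. In MYC-OE it was 0.37 (SE 0.250), or 0.17 without 3XCTL replicate 2. In 1xSRSF2 it was -0.80 (SE 0.587) and turned to 0.06 without 1xCtrl replicate 2, and in 1xSRSF3 it was -1.43 (SE 0.605) and -0.58 without that library. In 1xSRSF7 CLDN3 was at 0.73 (SE 0.569), or 1.62 without 1xCtrl replicate 2. With the GC trend removed CLDN3 was at -0.54 in 1xSRSF2, -0.96 in 1xSRSF3 and 0.57 in 1xSRSF7.

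**Figure D3:**
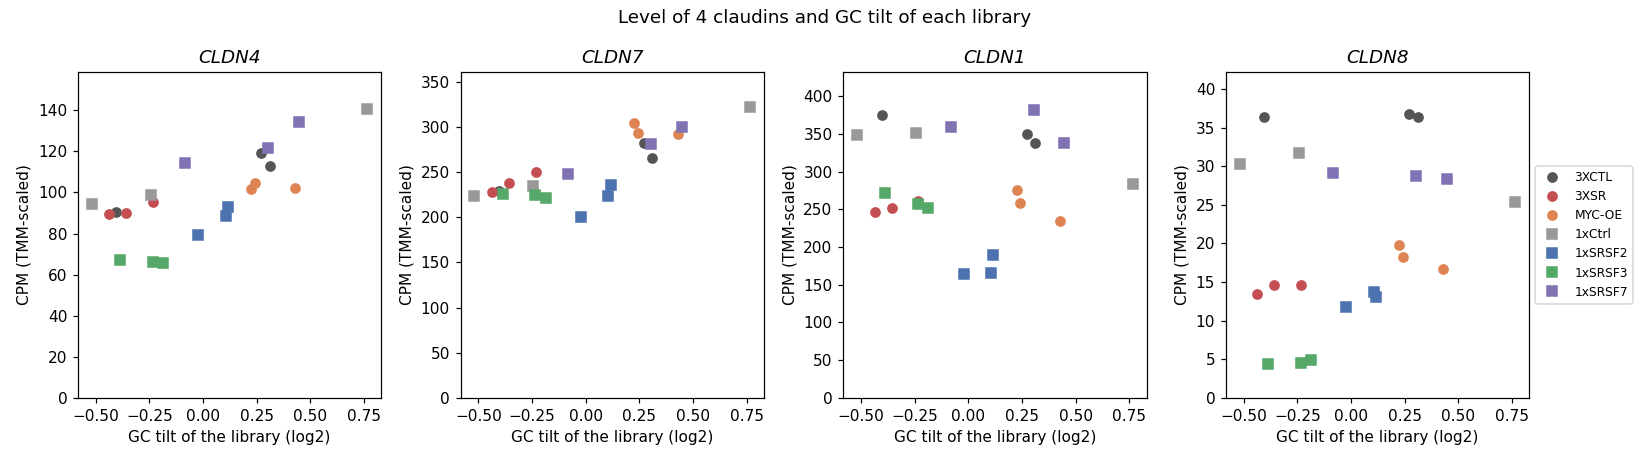
CPM of 4 claudins against the GC tilt of each library (log2); circles are the first table, squares the second, colours the groups. In 1xCtrl the library at 0.77 has the highest CLDN4 (141 CPM) and the lowest CLDN1 (284 CPM) of its group, while CLDN8 in 1xSRSF3 stays under 5 CPM and far from 1xCtrl.

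CLDN12, a claudin linked to calcium passage, was higher in 1 line and lower in another. CLDN12, which lies on chromosome 7, measured 75.7, 85.7 and 74.7 CPM in 3XCTL, 101, 104 and 101 in 3XSR, and 72.9, 75.8 and 70.2 in MYC-OE. It measured 111, 90.9 and 108 CPM in 1xCtrl, 74.3, 76.9 and 80.1 in 1xSRSF2, 111, 104 and 106 in 1xSRSF3, and 89.1, 92.9 and 88.5 in 1xSRSF7. The 3XSR libraries were all above their control (0.37, SE 0.0598; 0.26 with the GC trend removed), and the 1xSRSF2 libraries all below theirs (-0.42, SE 0.0725). MYC-OE (-0.11, SE 0.0597) and 1xSRSF7 (-0.20, SE 0.0723) overlapped their controls. So did 1xSRSF3, at 0.05 (SE 0.0723), which was -0.06 when libraries were scaled by total counts alone and -0.04 with the GC trend removed. CLDN12 was lower in MYC-OE than in 3XSR by -0.48 (SE 0.0598), or by -0.51 to -0.30 under the alternative fits. It was the only claudin member for which MYC-OE lay wholly below 3XSR. It shares 1101 of 6741 exon bases with other genes on its strand, among them GTPBP10 and CDK14, so its counts are uncertain to that extent.

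The 6 member claudins together, summed as CPM per kb, were lower in 4 lines than in their controls. CLDN11, which is not a member, is left out of this sum. Its mean was 16.3 CPM per kb in 3XCTL, 16.8 in 3XSR and 32.75 in MYC-OE. In the second table CLDN11 was at 19.75 in 1xCtrl, 18.0 in 1xSRSF2, 16.9 in 1xSRSF3 and 35.65 in 1xSRSF7. A sum that includes CLDN11 was not made. The sum of the 6 was 252, 244 and 264 in 3XCTL, 199, 215 and 206 in 3XSR, and 230, 241 and 222 in MYC-OE. In the second table it was 243, 263 and 236 in 1xCtrl, 172, 160 and 184 in 1xSRSF2, 198, 192 and 190 in 1xSRSF3, and 271, 250.1 and 269 in 1xSRSF7. No library of 3XSR, MYC-OE, 1xSRSF2 or 1xSRSF3 reached the lowest of its control, while 1xSRSF7 overlapped it. The gap was narrow in MYC-OE (241 against 244). CLDN8 made up 6.97 ± 0.226% of the sum in 3XCTL, 3.34 ± 0.0991% in 3XSR and 3.81 ± 0.170% in MYC-OE (SD, n = 3). The share of CLDN8 was 5.73 ± 0.916% in 1xCtrl, 3.62 ± 0.219% in 1xSRSF2, 1.16 ± 0.104% in 1xSRSF3 and 5.28 ± 0.300% in 1xSRSF7 (SD, n = 3). CLDN1 made up 27.5 ± 0.969% in 1xSRSF2 and 36.7 ± 0.643% in 1xSRSF3, against 36.4 ± 6.02% in 1xCtrl. CLDN7 made up 51.6 ± 1.11% in MYC-OE against 41.0 ± 2.85% in 3XCTL (SD, n = 3).

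**Figure D4:**
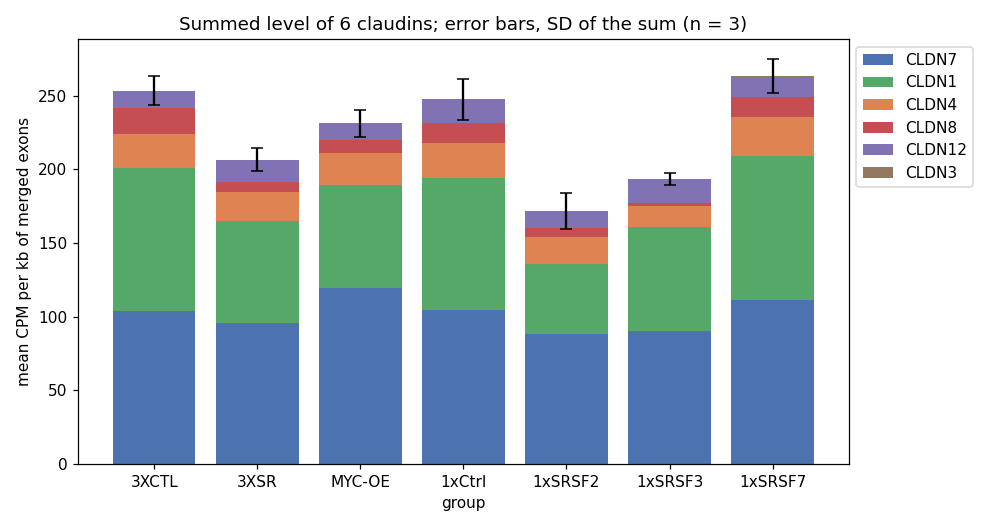
Stacked mean levels of the 6 claudins in CPM per kb of merged exons by group, with the SD of the sum (n = 3) as error bars; the bars start at 0. The sum is 253 ± 9.65 in 3XCTL and 172 ± 12.3 in 1xSRSF2, CLDN7 and CLDN1 fill most of every bar, and the CLDN8 layer is thinnest in 1xSRSF3.

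OCLN, which links claudin strands and regulates the passage of larger solutes, went the other way from CLDN8 and CLDN1 in 3 lines. OCLN measured 10.7, 13.6 and 11.4 CPM in 3XCTL, 20.0, 20.8 and 19.5 in 3XSR, and 19.1, 20.8 and 18.2 in MYC-OE. It measured 14.98, 12.97 and 15.9 CPM in 1xCtrl, 14.7, 14.0 and 14.3 in 1xSRSF2, 22.4, 20.1 and 20.0 in 1xSRSF3, and 17.1, 16.9 and 16.2 in 1xSRSF7. The libraries of 3XSR, MYC-OE, 1xSRSF3 and 1xSRSF7 were above their controls, the last by a narrow gap, and 1xSRSF2 overlapped its control. OCLN was 1.69-fold higher in 3XSR (log2 fold change 0.76, SE 0.0896), 1.63-fold higher in MYC-OE (0.70, SE 0.0894) and 1.43-fold higher in 1xSRSF3 (0.51, SE 0.0808). In 1xSRSF7 the log2 fold change was 0.19 (SE 0.0806) and in 1xSRSF2 -0.03 (SE 0.0807). OCLN was at 0.62 in 3XSR, 0.74 in MYC-OE and 0.40 in 1xSRSF3 with the GC trend removed. It was then at 0.23 in 1xSRSF7 and -0.02 in 1xSRSF2. OCLN was higher in 1xSRSF3 than in 1xSRSF2 by 0.54 (SE 0.0808), and in MYC-OE and 3XSR it overlapped (-0.05, SE 0.0887). That last difference ran from -0.10 to 0.12 under the alternative fits. The gene lies on chromosome 5 and shares no exon bases with another gene of the annotation.

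F11R, the junctional adhesion molecule, differed by little in any line. F11R measured 359, 402 and 384 CPM in 3XCTL, 385, 384 and 401 in 3XSR, and 427, 439 and 418 in MYC-OE. It measured 444, 381 and 429 CPM in 1xCtrl, 337, 365 and 355 in 1xSRSF2, 448, 418 and 445 in 1xSRSF3, and 425, 429 and 384 in 1xSRSF7. MYC-OE lay above its control (0.17, SE 0.0515) and 1xSRSF2 below it (-0.25, SE 0.0695), and 3XSR (0.03), 1xSRSF3 (0.06, or -0.05 under scaling by total counts alone) and 1xSRSF7 (-0.02) overlapped. F11R shares 1853 of 5066 exon bases with AL591806.3 on the same strand, and its counts are uncertain for that reason.

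The scaffolds TJP1 and CGN did not move alike. TJP1 measured 126, 137 and 122 CPM in 3XCTL, 118, 109 and 110.4 in 3XSR, and 98.8, 95.9 and 95.7 in MYC-OE, with each group below the one before. Its levels were 106, 92.4 and 111 CPM in 1xCtrl, 95.8, 93.5 and 92.2 in 1xSRSF2, 126, 116 and 113 in 1xSRSF3, and 88.4, 96.4 and 84.8 in 1xSRSF7. The log2 fold change of TJP1 was -0.20 (SE 0.0556) in 3XSR and -0.41 (SE 0.0556) in MYC-OE. It was 0.20 (SE 0.0745) in 1xSRSF3 (0.09 under total counts alone), -0.14 (SE 0.0745) in 1xSRSF2 and -0.20 (SE 0.0745) in 1xSRSF7. TJP1 was higher in 1xSRSF3 than in 1xSRSF7 by 0.40 (SE 0.0746).

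CGN was lowest where CLDN8 was lowest. CGN measured 40.1, 38.8 and 43.5 CPM in 3XCTL, 31.3, 33.7 and 33.3 in 3XSR, and 35.6, 38.6 and 36.6 in MYC-OE. It measured 40.2, 44.3 and 37.2 CPM in 1xCtrl, 30.9, 31.9 and 31.9 in 1xSRSF2, 21.6, 23.0 and 20.7 in 1xSRSF3, and 37.9, 35.8 and 34.3 in 1xSRSF7. Libraries of 3XSR, MYC-OE, 1xSRSF2 and 1xSRSF3 lay below their control, MYC-OE by a narrow gap, and 1xSRSF7 overlapped it. The log2 fold change of CGN was -0.31 (SE 0.0594) in 3XSR, -0.14 (SE 0.0593) in MYC-OE, -0.36 (SE 0.0727) in 1xSRSF2, -0.90 (SE 0.0733) in 1xSRSF3 and -0.17 (SE 0.0726) in 1xSRSF7. With the GC trend removed CGN was at -0.20 in 3XSR and -0.82 in 1xSRSF3. CGN was lower in 1xSRSF3 than in 1xSRSF7 by -0.73 (SE 0.0731) and than in 1xSRSF2 by -0.54 (SE 0.0730).

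Counts of members past an adjusted p of 0.05 (edgeR quasi-likelihood test over all genes) are given for completeness, each beside the share of all genes tested that passed. In 3XSR 7 members passed (29.0% of all genes), 2 of them higher (15.3%) and 5 lower (13.7%). In MYC-OE 6 passed (35.3%), 3 higher (18.0%) and 3 lower (17.3%), or 2 and 4 under total counts alone. The MYC-OE count was 1 higher and 3 lower without 3XCTL replicate 1, without MYC-OE replicate 1 or without MYC-OE replicate 2. All genes past the threshold in those fits numbered 7436 of 23762, 6666 of 23765 and 6556 of 23733. Under total counts alone 8442 of all 23160 genes passed in MYC-OE (3772 higher). In 1xSRSF2 5 passed (23.5%), 0 higher (11.6%) and 5 lower (11.9%). In 1xSRSF3 5 passed (29.2%), 1 higher (15.0%) and 4 lower (14.1%). In 1xSRSF7 0 of 10 passed by edgeR, DESeq2 or limma-voom, where edgeR called 17.3% of all genes (9.03% higher, 8.26% lower). There 4 members had an unadjusted edgeR p under 0.05, and 5 passed without 1xCtrl replicate 2, a fit in which 7321 of all 25110 genes passed. Between lines 6 members passed in MYC-OE against 3XSR (34.9%), 8 in 1xSRSF3 against 1xSRSF2 (26.8%), 5 in 1xSRSF7 against 1xSRSF2 (24.2%) and 8 in 1xSRSF3 against 1xSRSF7 (35.2%). Of these last 8, 3 were higher (17.8%) and 5 lower (17.3%), or 2 and 6 under upper-quartile scaling and under total counts alone. Of all 24362 genes 8193 passed there under upper-quartile scaling (3733 higher) and 8705 under total counts alone (3076 higher). Groups did not overlap for 7 members in 3XSR (40.2% of all genes), 7 in MYC-OE (48.3%), 6 in 1xSRSF2 (35.9%), 6 in 1xSRSF3 (39.8%) and 1 in 1xSRSF7 (32.6%). Since the genes were chosen on these contrasts, nothing is read from these counts. Lines of a table share their control, so their differences from it are not independent.

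Other genes of cell junctions were also followed. A list of 89 genes (18 other claudins, 38 other tight junction proteins, 11 adherens junction proteins and 22 regulators of junction genes) had 79 genes with enough counts in the first table and 81 in the second. In 3XSR 29 passed the test (14 higher, 15 lower; 36.7% of the list against 29.0% of all genes), with a median log2 fold change of 0.03 beside 0.00 over all genes. The 3XSR count was 17 higher and 24 lower without 3XCTL replicate 2, and 13 higher and 8 lower without 3XSR replicate 1. In those fits 9204 of all 23926 genes (4637 higher) and 5145 of all 23923 genes (2823 higher) passed. In MYC-OE 42 passed (27 higher, 15 lower; 53.2% against 35.3%, median 0.06). In 1xSRSF2 24 passed (8 higher, 16 lower, or 6 and 21 under total counts alone; 29.6% against 23.5%, median -0.03). In 1xSRSF3 23 passed (9 higher, 14 lower, 6 and 17 under upper-quartile scaling or 5 and 22 under total counts alone; 28.4% against 29.2%, median 0.01). In 1xSRSF7 15 passed (10 higher, 5 lower, or 6 and 5 under upper-quartile scaling; 18.5% against 17.3%, median 0.08). That last count was 29 without 1xCtrl replicate 2, 8 without 1xCtrl replicate 1 and 8 without 1xSRSF7 replicate 3. All genes past the test in those fits numbered 7321 of 25110, 3232 of 25098 and 2685 of 25033. Under total counts alone 6101 of all genes passed in 1xSRSF2 (2241 higher) and 7158 in 1xSRSF3 (2296 higher). Under upper-quartile scaling 6593 passed in 1xSRSF3 (2546 higher) and 3992 in 1xSRSF7 (1718 higher). The list was drawn up with earlier results of these libraries known.

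Among the other claudins, CLDN11, the claudin of myelin and testis, stood out in 2 lines. In MYC-OE the level of CLDN11 rose to 122 ± 11.6 CPM against 60.9 ± 2.54 in 3XCTL (SD, n = 3), a log2 fold change of 1.004 (SE 0.0745, adjusted p = 9.82e-07 by edgeR). In 1xSRSF7 CLDN11 rose to 133 ± 5.64 CPM against 73.7 ± 2.83 in 1xCtrl (SD, n = 3), a log2 fold change of 0.85 (SE 0.0770, adjusted p = 3.06e-05 by edgeR). In 3XSR (0.05) and 1xSRSF2 (-0.14) CLDN11 did not pass, and in 1xSRSF3 it fell slightly (-0.22, adjusted p = 0.0423). CLDN11 shares 683 of 3732 exon bases with AC026316.5 on its strand. CLDN10, which forms ion channels, rose in MYC-OE (from 1.77 to 3.00 CPM; 0.76, adjusted p = 0.000706) and fell in 1xSRSF3 (from 2.27 to 0.753 CPM; -1.59, adjusted p = 2.11e-06), though 1558 of its 3380 exon bases lie opposite DZIP1. CLDN15, a channel-forming claudin, fell in MYC-OE (from 9.48 to 4.87 CPM; -0.96, adjusted p = 0.000242). Of the 18 other claudins 8 in the first table and 7 in the second had too few counts to test.

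Among the other tight junction proteins, 13 of 36 passed in 3XSR (7 higher, 6 lower), 18 of 36 in MYC-OE (10 higher, 8 lower), 10 of 37 in 1xSRSF2 (3 higher, 7 lower), 11 of 37 in 1xSRSF3 (5 higher, 6 lower) and 8 of 37 in 1xSRSF7 (6 higher, 2 lower). These shares were 36.1%, 50%, 27.0%, 29.7% and 21.6% in that order, against 29.0%, 35.3%, 23.5%, 29.2% and 17.3% of all genes. CGNL1, the paralog of CGN, fell in 3XSR (-0.52, adjusted p = 0.00871), MYC-OE (-0.99, adjusted p = 7.73e-05) and 1xSRSF3 (-1.32, adjusted p = 4.30e-05), from a low 3.83 and 2.59 CPM in the 2 controls. In 1xSRSF2 (-0.35) and 1xSRSF7 (-0.13) it did not pass. LSR, which organises junctions where 3 cells meet, rose in MYC-OE from 245 ± 49.95 to 367 ± 8.54 CPM (SD, n = 3; 0.58, adjusted p = 0.00797). AMOTL1, an angiomotin family scaffold, rose in 1xSRSF3 from 156 ± 3.34 to 256 ± 13.2 CPM (SD, n = 3; 0.72, adjusted p = 1.36e-06), and 496 of its 10035 exon bases lie opposite AP002383.2. AMOTL1 also rose in 1xSRSF2 (0.33, edgeR adjusted p = 0.000865). PATJ, a polarity scaffold of the Crumbs complex, fell in 1xSRSF2 (-0.54, adjusted p = 0.000145) and in 1xSRSF7 (-0.39, adjusted p = 0.00270). CXADR, an adhesion receptor of the junction, fell in 1xSRSF2 from 74.0 to 53.1 CPM (-0.48, adjusted p = 0.000852). PRKCI, the atypical protein kinase C of the polarity complex, rose in 3XSR (0.38, adjusted p = 0.000586) and 1xSRSF3 (0.50, adjusted p = 0.000282). MAGI1, another scaffold, fell in 3XSR (-0.82, adjusted p = 0.00121) and MYC-OE (-0.72, adjusted p = 0.00209) from 2.85 CPM, and in 1xSRSF2 (-0.51, adjusted p = 0.0189) from 2.03 CPM.

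**Figure D5:**
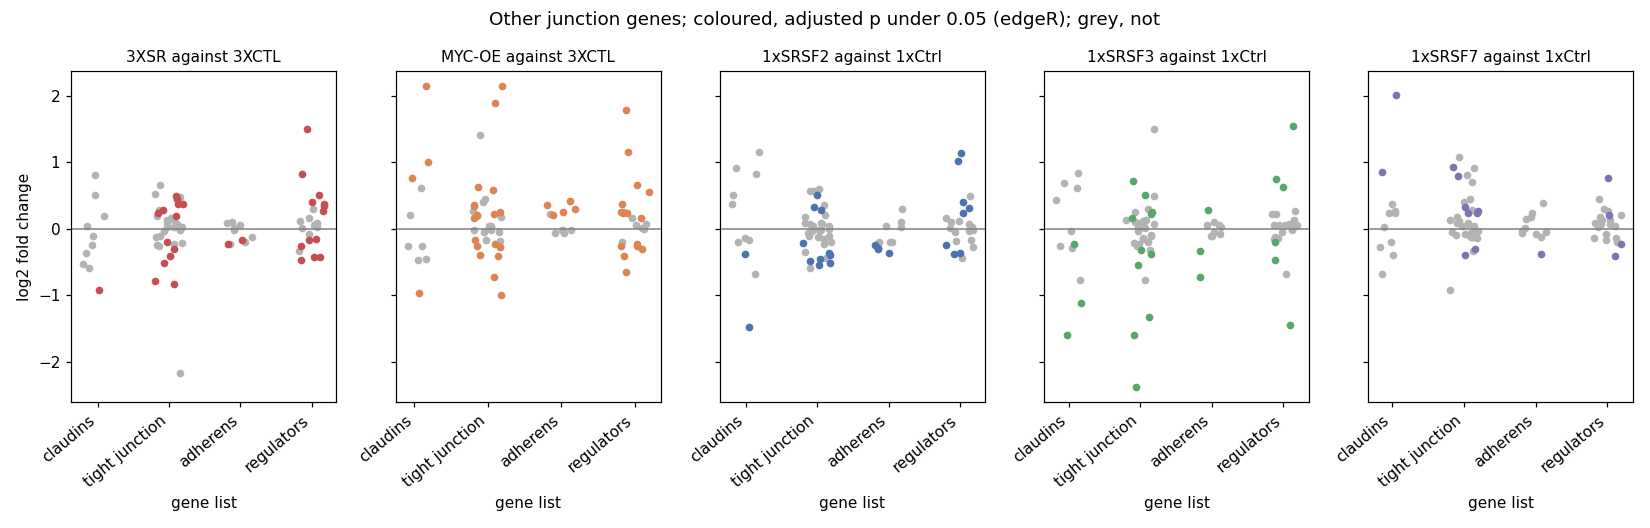
Log2 fold changes of the listed junction genes that are not members in the 5 lines (panels), by list; coloured points passed an adjusted p of 0.05 (edgeR), grey ones did not, and the sideways spread only separates points. MYC-OE has 42 coloured points and 1xSRSF7 has 15.

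The genes whose 5 differences from the controls lay nearest to those of CLDN8 were sought among 11293 genes with a mean of at least 5 CPM in both tables. By the root mean square difference of the 5 log2 fold changes, they were GGT6 (0.34), METTL7A (0.38), PALM3 (0.40), PLCE1 (0.47) and MUC1 (0.51). The other members had been left out of this search, and none of these 5 was a listed junction gene. GGT6, of the gamma-glutamyltransferase family, stood at -1.78 in 3XSR, -1.36 in MYC-OE, -1.50 in 1xSRSF2, -2.45 in 1xSRSF3 and -0.36 in 1xSRSF7. MUC1, a mucin of the apical surface, stood at -1.23, -1.30, -1.16, -1.64 and -0.40 in the same order. These 5 comparisons share 2 controls, and the likeness is a description over 5 comparisons.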

How the data were processed

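RNA was measured in 21 HCC1806 libraries by polyA-selected stranded RNA-seq, per the labels' protocols. The values are gene counts that the authors deposited as 2 tables, not scaled between libraries. The submitters' processing notes name Trimmomatic 0.39, STAR, StringTie 2.1.3b and GRCh38.p13. The counting step, its strand setting and the annotation release are not given in the sources used here.

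Groups and replicate numbers came from the titles. The 10 members and all gene lists were chosen with earlier results of these data known. Identifiers were matched by Ensembl ID, and 58548 of 60668 were found in GENCODE release 29 (GRCh38), which gave positions, exon lengths, overlaps and GC content. Promoters came from RefSeq (GRCh38.p14). CPM is the count over TMM-scaled library size, times 1e6.

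Each table was fitted once over all its groups with edgeR 4.0.16 in R 4.3.3 (filterByExpr, minimum count 10 and minimum total 15, leaving 23160 and 24362 genes; TMM; robust quasi-likelihood F test; Benjamini-Hochberg over all genes, threshold 0.05). The standard error is the log2 fold change divided by the root of F, and intervals are 1.96 standard errors each way. The steps were tested on simulated data. DESeq2 1.42.0, limma-voom (limma 3.58.1), other scalings, other filters, a replicate block, GC trend removal (50 bins), only the groups compared and each library left out were the alternatives. Named genes of the lists are from the 5 highest and 5 lowest log2 fold changes per line among those with adjusted p under 0.05 and a mean of at least 1 CPM, and the 5 genes nearest CLDN8. All libraries entered the reported fits.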

Additional observations from a re-analysis of the deposited data

How the results depend on the processing

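Under 16 alternatives per comparison, the counts of members past the threshold stayed within 1.5 times the reported count in 3XSR, MYC-OE and 1xSRSF3 against their controls, in MYC-OE against 3XSR and in both comparisons of 1xSRSF3 with another line. In 1xSRSF2 against 1xCtrl the count of 5 became 8 with the GC trend removed, where 8213 of all 24362 genes passed. In 1xSRSF7 against 1xCtrl the count of 0 became 2 under total counts alone, 2 with no filter, 5 with the GC trend removed and 0 to 5 when 1 library was left out. The upper 5 came without 1xCtrl replicate 2. All genes past the threshold in 1xSRSF7 numbered 4214 of 24362 in the reported fit, 4463 under total counts alone and 4107 of 39038 with no filter. They numbered 7005 with the GC trend removed and 7321 of 25110 without that library. In 1xSRSF7 against 1xSRSF2 the count of 5 became 3 under upper-quartile scaling, 9 with the GC trend removed, 8 with only the groups compared in the fit and 3 with the replicate block. All genes past the threshold in those fits numbered 5619, 8343, 7951 (of 23148) and 5079 in that order, against 5899 in the reported fit. For the junction list in 1xSRSF7 the count of 15 became 25 with the GC trend removed, 6 with only the groups compared and 8 to 29 when 1 library was left out. With only the groups compared, 2251 of all 23067 genes passed. The cause of these shifts was not tested. No called value reversed among those rerun, which were the members, these counts, the targeted genes and the list genes that the naming rule gave for that line. List genes printed for further lines were not rerun.

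The replicate numbers do not pair the libraries: after group means were taken out, libraries with the same number correlated at -0.19 to 0.05. Total counts alone took the median log2 fold change of all genes from -0.03 to -0.14 in 1xSRSF3 against 1xCtrl. At this depth CLDN3, with 23 to 347 counts per library, is the member with the largest standard errors, up to 0.61 on the log2 scale.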

Other observations

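The regulators of junction genes, a list of 22 genes with enough counts in both tables, had 13 past the threshold in 3XSR (7 higher, 6 lower), 15 in MYC-OE (9 higher, 6 lower), 8 in 1xSRSF2 (5 higher, 3 lower), 6 in 1xSRSF3 (3 higher, 3 lower) and 4 in 1xSRSF7 (2 higher, 2 lower). These shares were 59.1%, 68.2%, 36.4%, 27.3% and 18.2% in that order, against 29.0%, 35.3%, 23.5%, 29.2% and 17.3% of all genes tested. ELF3, an epithelial ETS transcription factor, fell in 1xSRSF3 from 49.0 ± 5.71 to 18.0 ± 1.27 CPM (SD, n = 3), by -1.45 on the log2 scale (SE 0.0820, adjusted p = 1.1e-07 by edgeR). It rose in 1xSRSF7 to 83.8 ± 3.69 CPM (SD, n = 3), by 0.77 (SE 0.0804, adjusted p = 7.81e-05 by edgeR). ELF3 shares 664 of 7191 exon bases with AL691482.3 on its strand and 664 with ELF3-AS1 on the other. SNAI2, a repressor of epithelial genes, rose in 1xSRSF3 from 31.0 ± 5.24 to 52.1 ± 0.346 CPM (SD, n = 3; 0.75, edgeR adjusted p = 0.000104), in 1xSRSF2 (0.41, adjusted p = 0.00885) and in 3XSR (0.35, adjusted p = 0.00278), and fell in MYC-OE (-0.31, adjusted p = 0.00469). OVOL1, a zinc finger factor of epithelia, rose in 1xSRSF2 from 10.1 ± 2.34 to 22.3 ± 1.33 CPM (SD, n = 3; 1.14, edgeR adjusted p = 4.94e-05), and 1044 of its 3849 exon bases lie opposite AP001266.1. OVOL1 also rose in 1xSRSF3 (0.64, edgeR adjusted p = 0.00197) and in 3XSR (0.41, edgeR adjusted p = 0.0136). Its rise in 1xSRSF3 did not pass under 3 of 16 alternative fits. SPINT2, an inhibitor of membrane serine proteases, fell in MYC-OE from 856 ± 48.9 to 547 ± 12.1 CPM (SD, n = 3; -0.65, edgeR adjusted p = 1.75e-06). SPINT2 also fell in 1xSRSF7 (-0.23, edgeR adjusted p = 0.0179), which did not pass under 3 of 16 alternative fits.

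Among the 11 adherens junction proteins, 2 passed in 3XSR (both lower), 5 in MYC-OE (all higher), 4 in 1xSRSF2 (all lower), 3 in 1xSRSF3 (1 higher, 2 lower) and 1 in 1xSRSF7 (lower). The shares of this list were 18.2%, 45.5%, 36.4%, 27.3% and 9.09%, beside the same shares of all genes. NECTIN4, a nectin of epithelial contacts, fell in 1xSRSF3 from 32.6 ± 1.88 to 19.8 ± 0.0894 CPM (SD, n = 3; -0.72, edgeR adjusted p = 6.52e-06), in 1xSRSF2 (-0.36, adjusted p = 0.00157) and in 1xSRSF7 (-0.38, adjusted p = 0.00214). In 3XSR (0.00) and MYC-OE (-0.07) it did not pass.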
